A study of Mus musculus with 12 samples.

Results

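The proteasome is the protease of cytosol and nucleus that degrades proteins tagged with ubiquitin, and the *Psma*, *Psmb*, *Psmc*, *Psmd*, *Psme*, *Psmf* and *Psmg* genes encode its subunits, activators, inhibitor and assembly chaperones. The genes described here were chosen by symbol, as *Psm* followed by a letter from a to g and a digit, with a mean of at least 1 FPKM (mapped fragments, scaled by exon length and by the library's total) over the 12 libraries. Of 24346 gene symbols, 50 had such a name and 48 reached the minimum. The lowest of those inside it was *Psme4*, with a mean of 2.93 FPKM. Outside it were *Psma8*, listed at 0 in all libraries except *Sema6d*-/- PBS replicate 3 with 0.0824 FPKM, and *Psmb11*, which lay between 0.0719 and 0.409 FPKM.

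Group 2 innate lymphoid cells (ILC2s) respond to the alarmin IL-33 with type 2 cytokines, and the study asked what the semaphorin Sema6D does in them. RNA was sequenced from lung ILC2s of C57BL/6 mice, which the paper describes as sorted by the surface proteins CD45, Thy1.2 and ST2 without lineage markers. The 4 groups were WT mice given PBS, *Sema6d*-/- mice given PBS, WT mice given IL-33 and *Sema6d*-/- mice given IL-33, each given intranasally for 3 days, with 3 libraries per group. The labels state an IL-33 dose of 50 ng and the paper's methods state a higher one. For the libraries, SMART-Seq HT and Nextera kits are named in the labels and TruSeq Stranded in the paper. The labels give no age, and the paper gives a range of weeks for its mice as a whole.

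The barrel of the proteasome, the 20S core, is built from rings of α subunits and rings of β subunits, and the catalytic sites sit on the β subunits encoded by *Psmb5*, *Psmb6* and *Psmb7*. In immune cells, and in most cells under interferon, *Psmb8*, *Psmb9* and *Psmb10* encode subunits that replace those of *Psmb5*, *Psmb6* and *Psmb7* in newly built cores, forming the immunoproteasome, which favours peptides that class I molecules can present. The 19S regulatory particle recognises ubiquitin chains, unfolds the protein and feeds it to the core, while activators such as the product of *Psme1* and *Psme2* bind the same ends of the barrel.

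The level of *Sema6d* itself was measured in every library before the proteasome genes. It was 27.5, 46.1 and 37.5 FPKM in WT PBS, 19.7, 35.5 and 28.7 FPKM in WT IL-33, 29.0, 22.9 and 19.8 FPKM in *Sema6d*-/- PBS, and 15.4, 13.6 and 13.8 FPKM in *Sema6d*-/- IL-33. The transcript was thus still counted in the *Sema6d*-/- libraries. Under IL-33 the genotypes did not overlap, and under PBS 1 *Sema6d*-/- library lay above the lowest WT library. Values per gene do not show which exons were read.

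The files give FPKM and no read totals, so the number of reads per library is unknown. The low values fall in steps whose size differs between libraries, and the most frequent ratio between the same genes' values, over genes under 1 FPKM in all libraries, gave depths relative to the shallowest library, WT PBS replicate 1, of up to 1.35 in the PBS libraries and of 1.30 to 1.88 in the IL-33 libraries. Between 7696 and 9287 genes lay above 1 FPKM in the PBS libraries, against 9917 to 10081 in the IL-33 libraries. Each PBS library had 1495 to 2904 of the 11420 genes tested at 0, and each IL-33 library 506 to 701. Treatment and this difference in detection moved together, and their parts in the results were not tested.

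The cell type label was checked against marker genes. All 13 ILC2 markers averaged above 1 FPKM, with *Id2* the most abundant, and their summed level was 5892 to 9369 FPKM. Some moved with treatment: *Il2ra* fell in WT (log2 fold change −2.16, adjusted p 0.000679) and in *Sema6d*-/- (−1.57, adjusted p 0.00660), *Klrg1* rose in WT (adjusted p 0.0329) and *Il5* fell in *Sema6d*-/- (adjusted p 0.0462). Of 7 T-cell markers, *Cd3g* was at 190 to 480 FPKM, *Cd3e* at 0 to 9.81 FPKM and *Cd4* at 0 in all libraries. The 13 macrophage markers in the files summed to 231 FPKM in *Sema6d*-/- PBS replicate 2, 435 FPKM in *Sema6d*-/- IL-33 replicate 2 and 148 FPKM in *Sema6d*-/- IL-33 replicate 3, against at most 17.1 FPKM in the other libraries. Their most abundant gene was *Chil3*, which reached 394 FPKM. *Cd68* was the list's only call for treatment, higher under IL-33 in *Sema6d*-/- (adjusted p 0.0260) at 4.87, 4.15 and 2.10 FPKM, against 0.240, 0 and 0 FPKM under PBS. The 3 libraries with the high sums stand apart, all of them *Sema6d*-/-.

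Markers of other cells varied by library, and some by treatment. The 5 NK-cell markers summed to 106 FPKM in *Sema6d*-/- PBS replicate 2, with *Ncr1* at 58.9 FPKM, and to at most 7.93 FPKM elsewhere. The 9 dendritic-cell markers summed to 11.2 to 356 FPKM under PBS and 524 to 1730 FPKM under IL-33, led by *Cd74*, which rose under IL-33 in WT (adjusted p 0.0230) and in *Sema6d*-/- (adjusted p 0.0420). *Clec9a* was at 0 in all libraries and *Flt3* reached 0.213 FPKM, while *Zbtb46* was at 0 to 10.3 FPKM under PBS and 2.49 to 10.7 FPKM under IL-33, and *Xcr1* at 0.194 to 10.4 FPKM and 4.63 to 11.4 FPKM. Of 8 granulocyte markers in the files, *Epx*, *Prg2*, *S100a8*, *S100a9* and *Mcpt8* were at 0 in all libraries, and *Cpa3*, the most abundant, was at 42.9 to 89.3 FPKM under PBS and 17.8 to 40.0 FPKM under IL-33, lower over both genotypes (adjusted p 0.00747). Of the 5 B-cell markers in the files, *Ms4a1* and *Pax5* were at 0 in all libraries, and the sum, led by *Cd79b*, reached 26.9 FPKM, with *Cd79b* higher under IL-33 over both genotypes (adjusted p 0.0128). The 11 markers of nonhematopoietic cells summed to at most 111 FPKM, and *Sftpc* reached 97.2 FPKM in *Sema6d*-/- IL-33 replicate 3. Their most abundant gene, *Epcam*, was at 16.4 to 54.0 FPKM under PBS and 0 to 8.71 FPKM under IL-33, lower over both genotypes (adjusted p 0.00382). The part of any of these cells in the proteasome levels was not tested, but log2 fold changes were taken again without the libraries that stand apart.

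The levels of the members are given as a description, since the rule used a minimum of the same mean. Their median of mean levels was 84.5 FPKM, against 9.56 FPKM over the genes tested, and 45 of 48 lay above that second median. The 17 genes of the 20S core had a median of 219 FPKM, from 86.0 FPKM for *Psmb7* to 526 FPKM for *Psmb3*. The 17 genes of the 19S particle had a median of 71.8 FPKM, from 30.3 FPKM for *Psmd7* to 157 FPKM for *Psmd8*. The medians differed on a scale per transcript length, while the ranges overlapped. *Psme1*, an activator subunit, was at 435 FPKM on average, and *Psmf1*, an inhibitor of the proteasome, at 24.2 FPKM. The 4 chaperones that assemble the core, *Psmg1* to *Psmg4*, had a median of 34.9 FPKM, and the 3 that assemble the base of the 19S particle, *Psmd5*, *Psmd9* and *Psmd10*, had a median of 26.2 FPKM.

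A total of 44 members were above 0 in all libraries. *Psmd13*, a 19S subunit, had 92.6 FPKM in WT PBS replicate 1 and 0 in replicate 2, and the other members listed at 0 somewhere were *Psmc3ip*, *Psmg3* and *Psmd9*. *Psmc3ip*, whose product binds a 19S subunit and acts in meiotic recombination, is matched by name only. *Psme2b*, at a mean of 4.89 FPKM, is a near copy of *Psme2*, so reads of the pair may be shared.

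Libraries of 1 group differed more under PBS than under IL-33. The median SD of the members on the log2(FPKM + 1) scale went, from PBS to IL-33, from 0.52 to 0.23 between the WT groups and from 0.52 to 0.15 between the *Sema6d*-/- groups. Over the genes tested, the median went from 0.66 to 0.29 and from 0.70 to 0.28. Every p-value below measures a difference against spread between libraries. The limma fit shared its variance for each gene over the 4 groups. Comparisons under IL-33 were thus judged against a spread that included the PBS libraries, and those under PBS against one that included the IL-33 libraries.

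The first question was whether IL-33 moved the family as a whole. The mean level of the 48 genes per library, on the same scale, had group means of 6.11 ± 0.04 (SD, n = 3) for WT PBS, 6.51 ± 0.08 for WT IL-33, 5.95 ± 0.21 for *Sema6d*-/- PBS and 6.36 ± 0.04 for *Sema6d*-/- IL-33. By library it ran from 5.71 to 6.14 under PBS and from 6.31 to 6.59 under IL-33, so the treatments did not overlap. The mean over all genes tested was also higher under IL-33, at 3.51 and 3.53 in WT and *Sema6d*-/-, against 3.26 and 3.31 under PBS. Relative to that mean, the members' level overlapped between treatments over all libraries, at 2.55 to 2.93 under PBS and 2.81 to 3.07 under IL-33. It overlapped within WT, at 2.69 to 2.93 and 2.91 to 3.07. Within *Sema6d*-/- it did not, at 2.55 to 2.77 under PBS and 2.81 to 2.86 under IL-33. The members made up 0.699 to 0.810% of all FPKM under PBS and 0.913 to 1.04% under IL-33. In bulk RNA, fewer cells with a transcript and less of it per cell cannot be told apart.

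**Figure D1:**
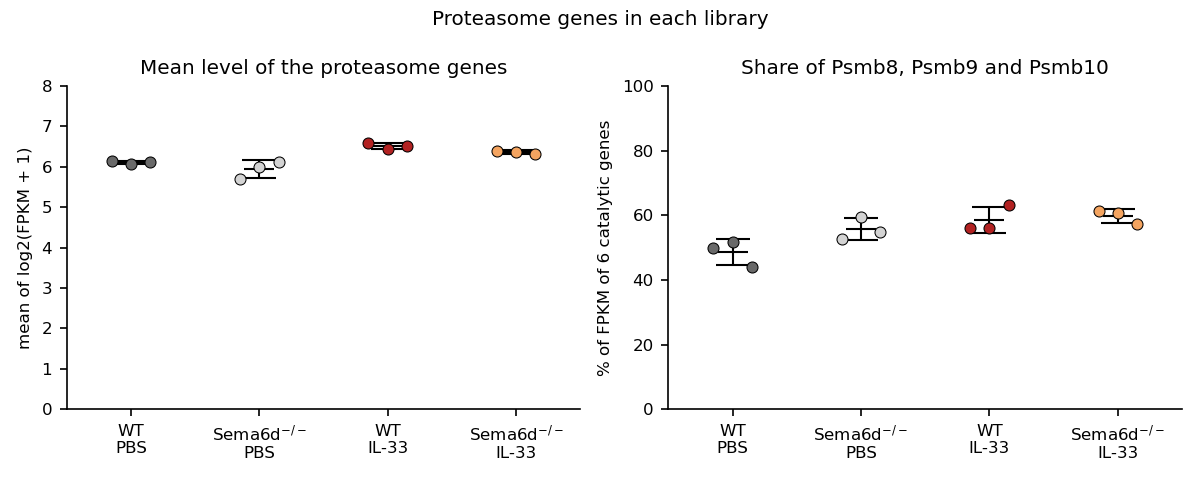
Mean level of the 48 proteasome genes (left, mean of log2(FPKM + 1)) and share of *Psmb8*, *Psmb9* and *Psmb10* in the summed FPKM of the 6 catalytic genes (right, %), by library. Points are libraries, bars the mean and SD of 3 libraries; the IL-33 libraries lie at 6.31 to 6.59 on the left, above all PBS libraries.

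The comparison of IL-33 with PBS was made in each genotype with limma, and a gene passed the test at an adjusted p under 0.05 over all 11420 genes. In WT, 1 of 48 members passed the test, *Psmb9*, against 4.31% of all genes. At an unadjusted p under 0.05 there were 9 members, against 17.7% of genes. The groups did not overlap for 10 members, all higher under IL-33, against 15.8% of genes higher and 9.21% lower. These were *Psma1*, *Psma4*, *Psma5*, *Psma6*, *Psma7*, *Psmb1*, *Psmb2*, *Psmb9*, *Psmd8* and *Psmd14*, most of them core subunits. The mean on the log2 scale was higher under IL-33 for 39 members, against 58.4% of genes, and the median log2 fold change was 0.30, against 0.16 over all genes. With quantile normalization the medians were 0.26 for the members and −0.04 for all genes.

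In *Sema6d*-/- cells, 1 of 48 members passed the test, *Psma7*, against 2.88% of all genes, and 8 had an unadjusted p under 0.05, against 15.3%. The groups did not overlap for 9 members that were higher under IL-33, against 13.9% of genes, and for 2 that were lower, *Psmd3* and *Psmf1*, against 8.73%. The higher ones were *Psma1*, *Psma4*, *Psma7*, *Psmb3*, *Psmb5*, *Psmb7*, *Psmb8*, *Psmb9* and *Psmc2*. The median log2 fold change was 0.32, against 0.14 over all genes, and with quantile normalization 0.29 against −0.02. With a pseudocount of 0.1 the medians of the members and of all genes were nearer to each other, at 0.34 and 0.30 in WT and 0.32 and 0.27 in *Sema6d*-/-. A single call among 48 members was near the share of all genes in both genotypes and shows little about the family. The counts also depended on single libraries.

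A contrast over both genotypes, chosen after the data were seen, averaged the 2 treatment effects. It called 4 members, *Psma7*, *Psmb1*, *Psmb8* and *Psmb9*, all higher under IL-33, against 8.91% of all genes, and 11 members had an unadjusted p under 0.05, against 22.7%. All 6 IL-33 libraries lay above all 6 PBS libraries for 2 members, *Psma1* and *Psmb9*, against 4.12% of genes, and no member lay below, against 2.33%. The median log2 fold change was 0.26, against 0.16 over all genes, and with a pseudocount of 0.1 the order turned, at 0.29 against 0.35.

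**Figure D2:**
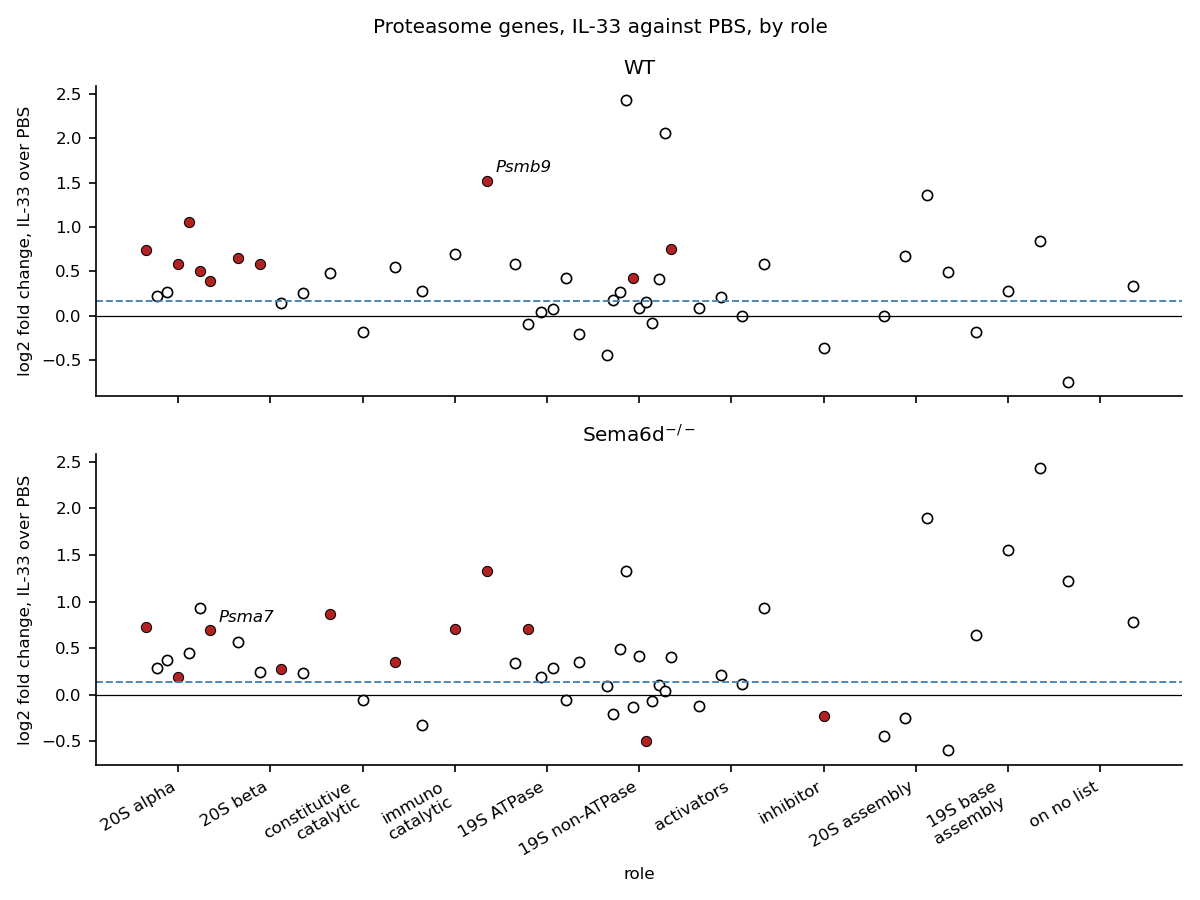
Log2 fold change of IL-33 over PBS for each of the 48 genes, grouped by role, in WT (top) and *Sema6d*-/- (bottom). Filled points are genes whose groups of 3 libraries did not overlap, names mark adjusted p under 0.05, and the dashed line is the median of all genes tested (0.16 and 0.14).

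By role, the α and the noncatalytic β subunits were uniform in direction. Over all genes tested, 58.4% had a higher mean under IL-33 in WT and 58.0% in *Sema6d*-/-. All 7 α subunits, which form the outer rings and the gate of the barrel, had a higher mean under IL-33 in both genotypes, also with quantile normalization and median-of-ratios scaling. Their log2 fold changes ran from 0.22 for *Psma2* to 1.05 for *Psma5* in WT, and from 0.19 for *Psma4* to 0.93 for *Psma6* in *Sema6d*-/-. The 4 noncatalytic β subunits were also higher on average in both, from 0.14 for *Psmb3* to 0.65 for *Psmb1* in WT and from 0.23 for *Psmb4* to 0.57 for *Psmb1* in *Sema6d*-/-. The mean level of the core genes, on the log2 scale, was 7.29 to 7.64 in the PBS libraries and 7.83 to 8.09 in the IL-33 libraries, with no overlap. The mean over all genes tested did not overlap either, at 3.11 to 3.45 under PBS and 3.49 to 3.55 under IL-33. Whether the core rose beyond that shift was not tested. The mean level of the 19S genes was 5.62 to 6.22 under PBS and 6.03 to 6.44 under IL-33, and here the treatments overlapped over all libraries. Within *Sema6d*-/- they overlapped as well, at 5.67 to 6.19 and 6.03 to 6.25. Within WT they did not, at 5.62 to 6.22 under PBS and 6.23 to 6.44 under IL-33. The difference between core and 19S means itself overlapped between treatments, at 1.61 ± 0.44 (SD, n = 3) and 1.71 ± 0.13 under PBS and IL-33 in WT, and 1.44 ± 0.22 and 1.68 ± 0.10 in *Sema6d*-/-, so the core was not shown to move apart from the 19S genes.

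*Psma7* encodes the α4 subunit. Its level was 297, 323 and 250 FPKM in WT PBS, 390, 403 and 346 FPKM in WT IL-33, 164, 221 and 235 FPKM in *Sema6d*-/- PBS, and 318, 333 and 339 FPKM in *Sema6d*-/- IL-33. The treatments did not overlap within a genotype, and 1 WT PBS library exceeded the lowest *Sema6d*-/- IL-33 library. The log2 fold change of IL-33 over PBS was 0.69 (SE 0.16, adjusted p 0.0459) in *Sema6d*-/- and 0.39 (SE 0.16, adjusted p 0.229) in WT, and the interaction of genotype and treatment was 0.30 (adjusted p 0.896). The effects were therefore not shown to differ between genotypes. Over both, the log2 fold change was 0.54 (adjusted p 0.0127), and the exact two-sided permutation p, with treatment permuted within genotype, was 0.005, the smallest that 400 assignments can give. The call in *Sema6d*-/- was kept under 9 of 23 alternatives; without *Sema6d*-/- PBS replicate 1, the lowest of the libraries, the log2 fold change was 0.53 (adjusted p 0.0838).

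*Psmb1* encodes a noncatalytic β subunit. It was at 288, 354 and 282 FPKM in WT PBS, 491, 476 and 478 FPKM in WT IL-33, 189, 325 and 414 FPKM in *Sema6d*-/- PBS, and 412, 450 and 448 FPKM in *Sema6d*-/- IL-33. The WT treatments did not overlap, while the highest *Sema6d*-/- PBS library lay just above the lowest IL-33 one. Averaged over both genotypes, the log2 fold change was 0.61 (adjusted p 0.0389, exact permutation p 0.01), and this call was kept under 9 of 22 alternatives.

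In the 19S particle, mean levels under IL-33 were higher for some genes and lower for others in each genotype. Of its 6 ATPase genes, whose products unfold substrates, 4 had a higher mean under IL-33 in WT and 5 in *Sema6d*-/-, with log2 fold changes from −0.21 for *Psmc6* to 0.58 for *Psmc1* in WT. Of the 11 genes without ATPase activity, 9 were higher on average in WT and 7 in *Sema6d*-/-. The range in WT ran from −0.44 for *Psmd1* to 2.43 for *Psmd13*. The value of *Psmd13* came from PBS libraries at 92.6, 0 and 33.7 FPKM beside IL-33 libraries at 66.7, 86.6 and 85.0 FPKM, so the groups overlapped. No 19S gene passed the test by limma in either genotype, where 3 and 1 of the 17 had an unadjusted p under 0.05, against 17.7 and 15.3% of all genes. In WT, *Psmd8* passed the test without WT PBS replicate 2 and *Psmd7* without WT PBS replicate 3. Over both genotypes, 6 of the 6 ATPase genes, from 0.07 for *Psmc6*, and 7 of the 11 others had a higher mean under IL-33, against 60.4% of all genes.

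The chaperones had no call by limma in either genotype, and of the 7 only *Psmd9* had an unadjusted p under 0.05, in *Sema6d*-/-, against 17.7 and 15.3% of all genes in WT and *Sema6d*-/-. The largest value there was also that of *Psmd9*, with a log2 fold change of 2.43. It came from PBS libraries at 0, 0.298 and 13.3 FPKM beside IL-33 libraries at 12.7, 13.5 and 13.4 FPKM, and the groups overlapped; without *Sema6d*-/- PBS replicate 3, *Psmd9* passed the test. The core chaperones ran from 0.00 for *Psmg1* to 1.36 for *Psmg3* in WT and from −0.60 for *Psmg4* to 1.90 for *Psmg3* in *Sema6d*-/-. *Psmg3* was at 35.7, 0 and 0 FPKM in *Sema6d*-/- PBS, and without replicate 1 of that group it passed the test. Their interaction terms did not pass the test.

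Among the catalytic subunits, *Psmb9* had the largest change. It encodes β1i, which takes the place of the *Psmb6* product. Its level was 62.2, 54.7 and 77.4 FPKM in WT PBS, 164, 158 and 249 FPKM in WT IL-33, 34.2, 85.1 and 83.7 FPKM in *Sema6d*-/- PBS, and 160, 158 and 160 FPKM in *Sema6d*-/- IL-33. The highest PBS library was well below the lowest IL-33 library. The log2 fold change was 1.52 (SE 0.32, adjusted p 0.0219) in WT and 1.33 (SE 0.32, adjusted p 0.0517) in *Sema6d*-/-, just outside the threshold, with an interaction of −0.19 (adjusted p 0.966). Over both genotypes it was 1.43 (SE 0.23, adjusted p 0.00233), higher in 6 of 6 IL-33 libraries than in any PBS library, with an exact permutation p of 0.005. *Psmb9* thus rose under IL-33, with no difference between genotypes shown. The call over both genotypes was kept under 22 of 22 alternatives and the call in WT under 15 of 23. Without WT IL-33 replicate 3, its highest library, the WT log2 fold change was 1.31 (adjusted p 0.110).

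*Psmb6*, the counterpart of *Psmb9*, did not follow it. It was at 227, 323 and 271 FPKM in WT PBS, 252, 212 and 256 FPKM in WT IL-33, 302, 137 and 211 FPKM in *Sema6d*-/- PBS, and 185, 190 and 221 FPKM in *Sema6d*-/- IL-33. The treatments overlapped in both genotypes. Its log2 fold change was −0.18 (adjusted p 0.777) in WT and −0.06 (adjusted p 0.953) in *Sema6d*-/-, where its sign changed with the processing. The log2 ratio of *Psmb9* to *Psmb6* was −1.85, −2.54 and −1.80 in WT PBS, −0.62, −0.43 and −0.04 in WT IL-33, −3.11, −0.68 and −1.32 in *Sema6d*-/- PBS, and −0.20, −0.26 and −0.47 in *Sema6d*-/- IL-33. The IL-33 libraries were thus nearest to equal levels, and *Psmb6* remained above *Psmb9* in each of the 12.

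*Psmb8* encodes β5i and *Psmb5* the β5 subunit it replaces. *Psmb8* was at 376, 527 and 233 FPKM in WT PBS, 616, 490 and 645 FPKM in WT IL-33, 370, 392 and 230 FPKM in *Sema6d*-/- PBS, and 564, 503 and 513 FPKM in *Sema6d*-/- IL-33. Only WT PBS replicate 2 reached the IL-33 libraries. The log2 fold change was 0.69 (adjusted p 0.209) in WT and 0.71 (adjusted p 0.241) in *Sema6d*-/-, and over both genotypes 0.70 (SE 0.19, adjusted p 0.0459, exact permutation p 0.01), a call kept under 8 of 22 alternatives. *Psmb5* was at 129, 287 and 195 FPKM in WT PBS, 336, 254 and 231 FPKM in WT IL-33, 111, 210 and 112 FPKM in *Sema6d*-/- PBS, and 272, 231 and 258 FPKM in *Sema6d*-/- IL-33. Its treatments overlapped in WT and not in *Sema6d*-/-. IL-33 over PBS gave log2 fold changes of 0.48 (adjusted p 0.470) in WT and 0.87 (adjusted p 0.188) in *Sema6d*-/-, and over both genotypes 0.68 (adjusted p 0.0780, exact permutation p 0.03). Single libraries moved these values. In WT, that of *Psmb8* was 0.38 without WT PBS replicate 3 and 0.97 without replicate 2. That of *Psmb5* was 0.19 without WT PBS replicate 1 and 0.77 without replicate 2. In *Sema6d*-/-, *Psmb8* had 0.47 without *Sema6d*-/- PBS replicate 3. Over both genotypes, *Psmb5* passed the test by limma under 2 of 22 alternatives. These left out WT PBS replicate 2 (0.82, adjusted p 0.0289) or *Sema6d*-/- PBS replicate 2 (0.83, adjusted p 0.0253). The log2 ratio of *Psmb8* to *Psmb5* was 0.26 to 1.72 under PBS and 0.87 to 1.48 under IL-33.

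The third pair is *Psmb10*, which encodes β2i, and *Psmb7*, which encodes β2. *Psmb10* was at 63.1, 130 and 97.6 FPKM in WT PBS, 115, 98.3 and 127 FPKM in WT IL-33, 133, 113 and 164 FPKM in *Sema6d*-/- PBS, and 111, 122 and 91.9 FPKM in *Sema6d*-/- IL-33. All groups overlapped. Its log2 fold change was 0.28 (adjusted p 0.649) in WT and −0.33 (adjusted p 0.605) in *Sema6d*-/-, with an interaction of −0.60 (adjusted p 0.896). These values depended on single libraries: that in WT was 0.00 without WT PBS replicate 1 and 0.52 without replicate 2, and the interaction ranged from −0.85 to −0.33 over the alternatives. *Psmb7* was at 146, 56.2 and 52.9 FPKM in WT PBS, 110, 115 and 109 FPKM in WT IL-33, 67.7, 57.4 and 69.5 FPKM in *Sema6d*-/- PBS, and 74.2, 86.3 and 88.0 FPKM in *Sema6d*-/- IL-33. WT PBS replicate 1 was far above the other PBS libraries and the highest of the 12. The log2 fold change was 0.55 (adjusted p 0.434) in WT and 0.35 (adjusted p 0.664) in *Sema6d*-/-. Without WT PBS replicate 1, that in WT was 1.02 (adjusted p 0.0140), past the threshold, and without replicate 2 or 3 it was 0.34 or 0.29. The log2 ratio of *Psmb10* to *Psmb7* was −1.20, 1.20 and 0.87 in WT PBS and 0.06, −0.22 and 0.23 in WT IL-33. In *Sema6d*-/- it was 0.96, 0.97 and 1.23 under PBS and 0.57, 0.50 and 0.06 under IL-33. The treatments overlapped in WT, while in *Sema6d*-/- the ratio was lower under IL-33 without overlap.

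**Figure D3:**
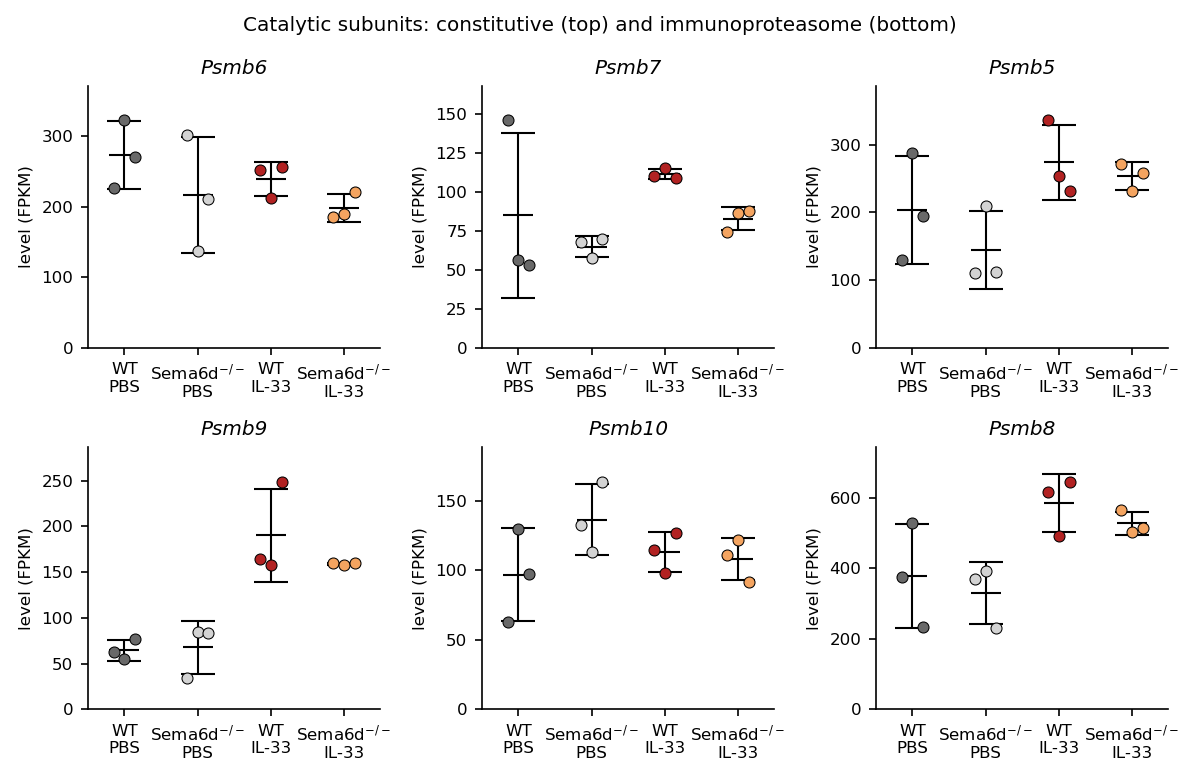
Level (FPKM) of the constitutive catalytic subunits *Psmb6*, *Psmb7* and *Psmb5* (top) above the immunoproteasome subunit that replaces each (bottom), by group. Points are libraries, bars the mean and SD of 3 libraries; *Psmb9* is at most 85.1 FPKM under PBS and at least 158 FPKM under IL-33.

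Together, *Psmb8*, *Psmb9* and *Psmb10* held 48.5 ± 4.01% (SD, n = 3) of the summed FPKM of the 6 catalytic genes in WT PBS, 58.5 ± 4.03% in WT IL-33, 55.7 ± 3.38% in *Sema6d*-/- PBS and 59.8 ± 2.05% in *Sema6d*-/- IL-33. By library the share was 49.9, 51.7 and 44.0% in WT PBS, 56.1, 56.2 and 63.2% in WT IL-33, 52.7, 59.4 and 54.9% in *Sema6d*-/- PBS and 61.2, 60.7 and 57.4% in *Sema6d*-/- IL-33. The treatments did not overlap in WT and overlapped in *Sema6d*-/-. Immunoproteasome transcripts were thus abundant without IL-33 as well, and the share is given as a description with no test.

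Of the 4 activator genes, 0 passed the test by limma in either genotype and 0 had an unadjusted p under 0.05, against 4.31 and 2.88% of all genes past the test and 17.7 and 15.3% at the unadjusted p, so that a count of 0 among 4 shows little. *Psme1* and *Psme2* encode the subunits of a ring that opens the barrel. *Psme1* was at 503, 405 and 378 FPKM in WT PBS, 463, 436 and 453 FPKM in WT IL-33, 562, 333 and 465 FPKM in *Sema6d*-/- PBS, and 386, 457 and 385 FPKM in *Sema6d*-/- IL-33. *Psme2* was at 207, 447 and 367 FPKM in WT PBS, 358, 358 and 407 FPKM in WT IL-33, 327, 290 and 248 FPKM in *Sema6d*-/- PBS, and 364, 337 and 298 FPKM in *Sema6d*-/- IL-33. The treatments overlapped for both genes in both genotypes. The log2 fold changes were 0.08 and −0.12 for *Psme1* and 0.21 and 0.21 for *Psme2* in WT and *Sema6d*-/-, with adjusted p of at least 0.726. The sign for *Psme1* and, in WT, for *Psme2* changed when 1 PBS library was left out. The activator gene with the largest values, *Psme4*, had log2 fold changes of 0.58 and 0.93 at levels of 0.163 to 6.47 FPKM, with overlapping groups.

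The second question was whether the genotypes differed. Under IL-33, no member passed the test by limma, against 0.00876% of all genes, and none had an unadjusted p under 0.05, against 1.84%. The variance of that fit included the more variable PBS libraries, so the absence of calls does not show equal levels. The groups did not overlap for 9 members, all lower in *Sema6d*-/-, against 7.34% of genes lower and 6.87% higher. They were *Psma1*, *Psma5*, *Psma7*, *Psmb1*, *Psmb2*, *Psmb7*, *Psmc3*, *Psmd4* and *Psmd14*. The mean was higher in *Sema6d*-/- for 11 of 48 members, against 50.6% of all genes, and the median log2 fold change was −0.16, against 0.01 over all genes. The sizes were small, from −0.55 for *Psma5* to 0.46 for *Psmc3ip*; that of *Psmb7* was −0.42 (SE 0.32). In that comparison, *Sema6d*-/- IL-33 replicates 2 and 3 are among those with macrophage markers, and without both the median of the members was −0.09.

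Under PBS, 0 members passed the test by limma for genotype, against 0.578% of all genes, and 3 had an unadjusted p under 0.05, against 13.0%. The groups did not overlap for *Psmg4*, higher in *Sema6d*-/-, against 4.41% of genes, and for *Psma7* and *Psmc2*, lower, against 4.19%. The median log2 fold change was −0.19, against 0.00 over all genes, and ranged from −0.28 without WT PBS replicate 3 to −0.10 without WT PBS replicate 1. The interaction of genotype and treatment passed the test in limma for 0 members, against 0.0175% of all genes, and 2 had an unadjusted p under 0.05, against 5.58%. The IL-33 comparisons and the genotype comparisons use the same 12 libraries, so they share groups, and a high or low group enters 2 of them.

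The genes that work beside the proteasome were taken from 5 fixed lists. Their counts stand beside the shares of all genes given above, 4.31% past the test in WT and 2.88% in *Sema6d*-/-, and 17.7 and 15.3% at an unadjusted p under 0.05. Over both genotypes the share past the test was 8.91%. At the unadjusted p by limma, WT and *Sema6d*-/- had 4 and 4 of 11 class I genes and 5 and 3 of 12 interferon genes. The ubiquitin list had 1 and 2 of 9, and the other partners 4 and 2 of 15. Of 11 genes of class I presentation, *B2m* and *H2-K1* passed the test as higher under IL-33 in WT and *Tap1* in *Sema6d*-/-. None passed it as lower in either. *Tap1*, which carries the peptides into the endoplasmic reticulum, was at 26.8, 21.3 and 27.2 FPKM in WT PBS, 59.4, 44.5 and 55.9 FPKM in WT IL-33, 14.1, 19.5 and 9.72 FPKM in *Sema6d*-/- PBS, and 49.3, 49.5 and 70.4 FPKM in *Sema6d*-/- IL-33. All IL-33 libraries lay above all PBS libraries. The log2 fold change was 1.05 (adjusted p 0.0751) in WT and 1.93 (adjusted p 0.00590) in *Sema6d*-/-, and over both genotypes 1.49 (adjusted p 0.00105). Over both genotypes *B2m*, the light chain of class I, had a log2 fold change of 0.42 (adjusted p 0.00282), and *H2-K1*, a heavy chain, one of 0.39 (adjusted p 0.00179). The list's only other call over both genotypes was *Calr*, lower under IL-33. Its treatments did not overlap within WT (log2 fold change −0.74, adjusted p 0.130 by limma) or within *Sema6d*-/- (−0.70, adjusted p 0.187), and overlapped over all libraries.

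Of 12 genes of interferon and IRF signalling, *Irf9* passed the test as higher under IL-33 in WT and *Ifit1* in *Sema6d*-/-. *Irf9*, an interferon regulatory factor gene, was at 0, 0 and 0.387 FPKM in WT PBS, 24.1, 22.9 and 21.1 FPKM in WT IL-33, 0, 16.0 and 0 FPKM in *Sema6d*-/- PBS, and between 17.2 and 28.6 FPKM in *Sema6d*-/- IL-33. *Ifit1*, an interferon-induced gene, was listed at 0 in 5 PBS libraries and at 3.35 FPKM in WT PBS replicate 3, against 4.43 to 23.8 FPKM in the IL-33 libraries. Neither gene overlapped between treatments. A value of 0 in these files cannot be told apart from a transcript that was present and not detected, and zeros were more frequent in the PBS libraries.

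Of 9 genes of ubiquitin supply and extraction, *Ubb*, a polyubiquitin gene, passed the test as lower under IL-33 in both genotypes and none passed it as higher. It was at 4190, 4253 and 4183 FPKM in WT PBS, 2883, 2851 and 2955 FPKM in WT IL-33, 3814, 3339 and 3764 FPKM in *Sema6d*-/- PBS, and 2517, 2754 and 2669 FPKM in *Sema6d*-/- IL-33. All IL-33 libraries lay below all PBS libraries, with log2 fold changes of −0.54 (adjusted p 0.00225) in WT and −0.46 (adjusted p 0.00951) in *Sema6d*-/-. *Ubb* and *Psmb9* thus moved in opposite directions under IL-33.

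Of 15 other partners, 0 passed the test in WT by limma, with 4 at an unadjusted p under 0.05, and *Zfand5* fell in *Sema6d*-/-, with a log2 fold change of −1.17 (adjusted p 0.0437). *Zfand5* encodes a ubiquitin-binding activator of the proteasome. Over both genotypes *Pomp*, the chaperone with which new cores mature, rose by a log2 fold change of 0.60 (adjusted p 0.00999). *Zfand5* fell, with a log2 fold change of −1.08 (adjusted p 0.00478). The level of *Pomp* was 144 to 222 FPKM in the PBS libraries and 234 to 332 FPKM in the IL-33 libraries. Of 7 genes of the *Nfe2l1* and *Nfe2l2* transcription factors and their regulators, 0 passed in either genotype by limma, with 2 in WT and 1 in *Sema6d*-/- at an unadjusted p under 0.05. Over both genotypes *Ngly1* was called lower, with a log2 fold change of −0.90 (adjusted p 0.0277). Its treatments did not overlap within either genotype. They overlapped only between genotypes, at 36.2 FPKM in *Sema6d*-/- IL-33 replicate 3 against 35.7 FPKM in WT PBS replicate 2. *Sem1* and *Ufd1* were tested under the older symbols *Shfm1* and *Ufd1l*, and *Paaf1* is not among the symbols of the files.

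The position of the genes was not used to choose them. In the GENCODE annotation vM21 of GRCm38, the 48 members lie on 16 chromosomes. *Psmb9* (chr17:34181987-34187764, minus strand) and *Psmb8* (chr17:34197721-34201454, plus strand) lie 9956 bases apart with *Tap1* (chr17:34187553-34197225, plus strand) between them and *Tap2* 2072 bases beyond *Psmb8*, all in the class II region of the major histocompatibility complex. *Psmb8*, *Psmb9* and *Tap1* thus neighbour each other. All 3 had a call in the contrast over both genotypes, chosen after the data were seen, against 8.91% of all genes. *Psmb8* had none by limma in WT (adjusted p 0.209) or *Sema6d*-/- (adjusted p 0.241) alone, and *Tap2* had none over both (log2 fold change 0.46, adjusted p 0.212). Whether position had a part was not tested. *Psmb10* (chr8:105935735-105938444, minus strand) lies elsewhere. *Psme1* and *Psme2* lie 5911 bases apart on chromosome 14.

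Exons of *Psmb9* and *Tap1* overlap by 212 bases on opposite strands, and reads of that stretch cannot be told apart if the counting ignored the strand. A total of 12 members have exons over a gene of the other strand, *Psmb7* with *Nek6* and *Psmd13* with *Sirt3* among them, and 4 over a gene of the same strand.

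Promoters from RefSeq (GRCm38.p6), 250 bases before to 50 after the start, were found for 41 members (44 promoters), all except *Psmb1*, *Psmb2*, *Psmb7*, *Psmc3*, *Psmd3*, *Psmd7* and *Psmg2*. They were searched on both strands for 3 short motifs. The core of the antioxidant response element, TGACNNNGC, which Nfe2l1 and Nfe2l2 are known to bind, was in 6 of the 44 promoters of members (13.6%), those of *Psmb5*, *Psmb6*, *Psmc6*, *Psmd9*, *Psmd12* and *Psme4*, against 12.4% of all 32851 promoters. The IRF motif GAAANNGAA was in 7 (15.9%), against 8.56% of promoters. The NF-κB motif GGNNTTTCC was in 3 (6.82%), against 5.82%. None of the 3 motifs was in the windows of *Psmb8*, *Psmb9* or *Psmb10*, which says only that these letters are not there. The windows of *Psmb8* and *Psmb9* begin from RefSeq starts and lie within the longer GENCODE genes given above, over their exons. In *Psmb5* the match TGACGTCGC begins 47 bases before the start.

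The sequence upstream of *Psmb6* shows a match to the same motif next to the start. The 250 bases end at the base before the start (GRCm38.p6, chr11:70525107-70525356, plus strand), with the motif in capitals; a match is a description of letters and not a measured site.
*Psmb6*: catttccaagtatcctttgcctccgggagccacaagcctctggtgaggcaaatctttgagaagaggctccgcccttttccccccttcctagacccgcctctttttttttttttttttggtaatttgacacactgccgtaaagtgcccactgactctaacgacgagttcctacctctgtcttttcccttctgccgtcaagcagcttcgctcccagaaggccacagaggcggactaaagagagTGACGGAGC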

How the data were processed

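The authors deposited FPKM per gene symbol, made per the labels with TopHat2 2.1.1, Bowtie2 and Cuffdiff 2.2.1 on mm10; the paper names another TopHat release and Cuffnorm. Values were used as log2(FPKM + 1). Genes averaging 0.5 FPKM or more, and all listed genes above 0 in any library, were tested with limma 3.58.1 (R 4.3.3; mean-variance trend, 4 group means, 8 residual degrees of freedom), with Benjamini-Hochberg adjustment over 11420 genes. Single genes were also tested by exact two-sided permutation of libraries; with 3 against 3 its smallest p is 0.10. The fit was tested on simulated data. Members, lists and the contrast over both genotypes were chosen with earlier results of these data known. By rule, values in every library are given for the 6 catalytic genes, *Psme1*, *Psme2* and members passing a test without overlap. *Psmb1* and *Psmd13* were added after their values were seen, *Psmd13* for WT libraries only. For *Psmd9* and *Psmg3*, which the rule does not name, values are given in some *Sema6d*-/- libraries. Alternatives changed the pseudocount, filter, scaling, variance model, weights and replicate block, or left out libraries. Tables and plots used Python 3.11.15, numpy 2.4.6, pandas 2.3.3 and matplotlib 3.10.9. Libraries' numbers were not used as pairs, since same-numbered libraries correlated at −0.0468 to 0.0448 after removal of group means. A result on the interferon list is not reported here.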

Additional observations from a re-analysis of the deposited data

How the results depend on the processing

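*Psmb9* passed the threshold over both genotypes under 22 of 22 alternatives, with log2 fold changes of 1.21 to 1.54 and adjusted p of 0.000889 to 0.0487. Genotype and interaction counts were 0 in limma under every alternative. Their counts at an unadjusted p under 0.05 ranged from 0 to 6 for genotype under IL-33 (6 with array weights), from 0 to 10 under PBS (10 without WT PBS replicate 1, 0 with array weights) and from 0 to 3 for the interaction, against 0, 3 and 2 as reported. The count of members for IL-33 in WT, 1 as reported, was 0 without the variance trend and 2, *Psmb1* and *Psmb9*, with only the groups compared. It ranged from 0 to 2 when 1 library was left out: 0 without WT IL-33 replicate 1, 2 or 3, and 2 without WT PBS replicate 3 or *Sema6d*-/- PBS replicate 1. Without WT PBS replicate 1 or 2, *Psmb9* had an adjusted p of 0.0616 or 0.0587, in a range of 0.00191 to 0.110, and the 1 member called was *Psmb7* or *Psmd8*.

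The count in *Sema6d*-/-, 1 as reported, was 0 with quantile normalization, without the trend, with array weights and with only the groups compared. It ranged from 0 to 3 when 1 library was left out: 0 without any 1 of the 6 IL-33 libraries, and 3 without *Sema6d*-/- PBS replicate 2 or 3. Without *Sema6d*-/- PBS replicate 1 the 1 member called was *Psmg3*, and *Psma7* had an adjusted p of 0.0838, in a range of 0.0359 to 0.656 over all alternatives. In fits with more than 1 library in each group, calls over all genes ranged from 209 to 692 in WT and from 132 to 493 in *Sema6d*-/-. Without *Sema6d*-/- PBS replicate 3, the 3 members stood beside 379 genes. With the replicate block, which treats same-numbered libraries as paired, the count in *Sema6d*-/- was 0.

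Over both genotypes the count, 4 as reported, was 2 with no filter and 1 without the trend. It ranged from 2 to 7 when 1 library was left out: 7 without *Sema6d*-/- PBS replicate 2, and 2 without WT PBS replicate 3 or any 1 of the 6 IL-33 libraries. Alternatives chosen after seeing the data left out *Sema6d*-/- IL-33 replicates 2 and 3, which hold macrophage markers, alone or with *Sema6d*-/- PBS replicate 2. Both leave 1 *Sema6d*-/- IL-33 library, assumed to vary like the other groups, so for each of these fits only log2 fold changes are given. The tallies of calls and the ranges over all alternatives include both fits and rest in part on that assumption. The log2 fold changes in WT use none of these libraries and cannot move. In *Sema6d*-/-, that of *Psmb9*, 1.33 as reported, was 1.34 and 1.56, and that of *Psmb8*, 0.71 as reported, was 0.81 and 0.95. *Psmb5*, 0.87 as reported, had 0.97 and 1.27. *Psmb6*, −0.06 as reported, had −0.16 and −0.45, and *Psmb7*, 0.35 as reported, had 0.20 and 0.11. Over both genotypes *Psmb8*, 0.70 as reported, had 0.75 and 0.82.

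Quantile normalization moved the median over all genes in WT from 0.16 to −0.04 and that of the members from 0.30 to 0.26. Among log2 fold changes whose sign changed, none past the threshold, *Psmb6* in *Sema6d*-/- was 0.01 with array weights and −0.35 to 0.22 when 1 library was left out. *Psme1* was 0.00 to 0.20 in WT and −0.32 to 0.05 in *Sema6d*-/-, and *Psme2* in WT was −0.11 to 0.44. The mean member level was 6.00 in WT PBS and 6.31 in *Sema6d*-/- IL-33 with a pseudocount of 0.1. With only the 44 members above 0 in all libraries the PBS means were 6.40 in WT and 6.30 in *Sema6d*-/-, and the IL-33 means 6.75 and 6.59. The cause of these shifts was not tested, except that fewer libraries leave fewer degrees of freedom. With quantile normalization the share of immunoproteasome subunits moved by less than the SD of its group. The number of reads per library is unknown, so the precision of low values is too.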
